A study of Mus musculus with 14 samples.

Results

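The clustered protocadherin genes were followed through both mouse cortex tables of the series. They were taken as every row whose symbol named a gene of the alpha, beta or gamma protocadherin cluster. That gave 58 of 24444 genes in each table, with 14 in the alpha cluster, 22 in the beta cluster and 22 in the gamma cluster. The first comparison set 3 miR29Nestin cortices against 3 miR29WT cortices, all at postnatal day 40 (P40). In miR29Nestin mice both loci that encode miR-29 (miR-29ab1 and miR-29b2c) carried floxed alleles and were deleted by a Nestin-Cre transgene, which acts in the neural lineage and therefore leaves miR-29 in cells of other origin, such as microglia and vessels. The second comparison set 4 Dnmt3a-mi5 cortices against 4 Dnmt3a-WT cortices, all at 4.5 months. Dnmt3a-mi5 mice carried a CRISPR/Cas9 knock-in that mutated 5 miR-29 binding sites in the 3′ UTR of Dnmt3a, so their miR-29 genes were left in place. For miR29WT the labels give only the genotype and do not say whether those mice carried floxed alleles or the transgene.

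Clustered protocadherins are cadherin-like proteins of the cell surface that bind their own kind on neighbouring cells. Each neuron switches on a few of the alternate genes by random promoter choice, and the resulting combination lets sister branches of one neuron recognise and avoid each other. In the alpha and gamma clusters a variable first exon, which encodes the extracellular part, is spliced to constant exons shared by the whole cluster, whereas each beta gene is a single exon. The C-type genes at the end of the alpha and gamma clusters are expressed more uniformly. Promoter choice depends on CTCF and cohesin, and DNA methylation of the promoters goes with silencing.

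The 3 miR-29 microRNAs removed in miR29Nestin mice are shown because their common seed decides which 3′ UTRs are considered below. Sequences are from RefSeq (GRCm38.p6), 5′ to 3′, and capitals mark the seed, bases 2 to 8. miR-29a and 1 copy of miR-29b lie on the minus strand of chromosome 6, and miR-29c and the other copy of miR-29b on the plus strand of chromosome 1.
mmu-miR-29a-3p: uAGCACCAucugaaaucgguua
mmu-miR-29b-3p: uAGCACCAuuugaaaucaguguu
mmu-miR-29c-3p: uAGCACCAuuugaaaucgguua
All 3 carry the same seed, AGCACCA, so a match to it in a 3′ UTR, TGGTGCT on the sense strand, is a match to all of them.

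The 14 alpha genes share a single annotated 3′ UTR of 2404 bases, and it holds 1 TGGTGCT, at bases 2353 to 2359, 45 bases before its end and followed by an A. Among the 22 beta genes, which have 3′ UTRs of their own, Pcdhb4 and Pcdhb22 hold a match. None of the 22 gamma genes does. For comparison, 2884 of 20294 mouse genes with an annotated 3′ UTR (14.2%) hold at least 1 TGGTGCT, and Dnmt3a holds 5. A match is a run of letters and not a measured binding site. All 58 genes lie on the plus strand of chromosome 18 in GRCm38.p6, with the alpha cluster at 36930285 to 37188897, the beta cluster at 37264998 to 37521419 and the gamma cluster at 37661775 to 37841873.

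The authors deposited variance-stabilised values, a log2-like scale that flattens differences between low genes. From them the normalised counts were recovered, that is reads per gene divided by a size factor per library, and levels are given in that unit. In the 4.5-month table an additive difference between libraries had been removed before deposit. The same inversion there gives adjusted values, which are called normalised counts below but are not reads over a size factor. Differences are given on the deposited scale as mutant minus wild type, with their standard error (SE) from limma across all genes. P-values were adjusted over all genes tested, a gene was called at an adjusted p under 0.05, and genes whose mean lay less than 1 unit above the table's lowest value (under about 48.0 normalised counts in the P40 table and 80.1 in the 4.5-month table) were not tested. By this filter 48 of the 58 genes were tested at P40 and 47 at 4.5 months, and every gene left out was a beta gene.

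The libraries at P40 held between 9.17 M and 14.4 M reads in genes. The depth of the 4.5-month libraries is unknown, and there an additive difference between 2 sets of 4 libraries, each with mutant and wild-type members, had been removed before deposit. Dnmt3a, whose miR-29 sites the knock-in mutated, had 5275, 5452 and 5859 normalised counts in miR29Nestin cortices, against 1724, 1658 and 1605 in miR29WT cortices. It had between 1948 and 2249 in Dnmt3a-mi5 cortices, against between 1062 and 1234 in Dnmt3a-WT cortices. The groups stood apart in each table, by 1.63 (SE 0.05, limma adjusted p = 8.18e-08) and by 0.70 (SE 0.05, limma adjusted p = 6.24e-04). The sample titles number the replicates and do not say whether each is a separate mouse, so p-values measure the spread between these libraries.

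In wild-type cortex the family ran over more than an order of magnitude in level, and the order of its members was much the same in both tables. Per kilobase of transcript, Pcdhgc5 was the highest member, with 291 normalised counts per kb in miR29WT and 327 in Dnmt3a-WT. Pcdhgc5 is a C-type gene that rises after birth in cortex, and its protein binds GABA-A receptor gamma subunits. Pcdhgc3, whose protein promotes dendrite branching and restrains Wnt signalling through Axin1, followed with 200 and 239 per kb. The alternate gamma genes lay close together, at 68.8 to 93.7 per kb in miR29WT and 54.2 to 111 per kb in Dnmt3a-WT. The alternate alpha genes were lower, at 24.4 to 38.2 and 19.7 to 37.5 per kb, and Pcdha12 was the highest of them in both. Pcdhac2, which spaces serotonergic axons in mice, stood above the other alpha genes with 84.0 and 98.5 per kb. The beta genes spread most, and Pcdhb1 was at 0 in all 3 miR29WT libraries. Spearman's rho between the levels per kb in both wild-type groups was 0.948 over the 58 genes, 0.745 over the 14 alpha, 0.907 over the 22 beta and 0.790 over the 22 gamma genes. These are descriptions, since the points within a table share libraries, and the tables differ in age, library kit and normalisation.

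**Figure D1:**
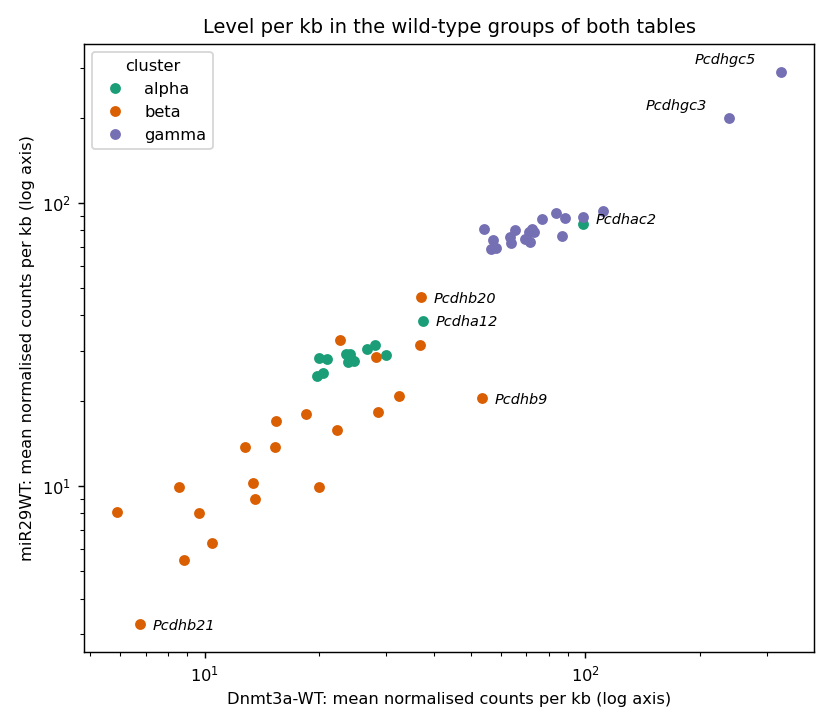
Mean normalised counts per kb of transcript in miR29WT (vertical, n = 3) and Dnmt3a-WT (horizontal, n = 4) cortices, both on log axes, 1 point per gene, coloured by cluster. Pcdhb1, at 0 in miR29WT, is not drawn. The 2 gamma C-type genes Pcdhgc5 and Pcdhgc3 stand at the top, most gamma genes form a tight group below them, and the beta genes trail to the lowest levels.

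The genes of a cluster are not independent measurements. Of all runs of 50 bases in the longest coding transcript of each alpha gene, 48.2% to 63.9% also occur in another member, because of the constant exons. The same share was 41.2% to 54.6% for gamma genes and 0% to 12.0% for beta genes. How reads from shared exons were divided among members is not given in the sources used here. A shift of the shared part could thus appear in many alpha or gamma genes at once, and counts of genes moving together in those clusters are given with that in view. The levels per kb of alpha and gamma genes, and how close together they lie, also depend on how those reads were divided.

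When both miR-29 clusters were deleted, 2 of 48 tested clustered protocadherins passed the test, 1 in each direction, in a table where 19.1% of all genes passed (9.02% higher and 10% lower). The count of 2 lies below the table's share, and that difference was not tested. Pcdha9 was higher and Pcdhgc5 was lower in miR29Nestin cortices. The alternate alpha genes lay above their wild-type levels by a small amount in all 12 cases, and the alpha cluster held 20.1% to 21.6% of the family's normalised counts in miR29Nestin cortices, against 17.8% to 18.6% in miR29WT cortices. In bulk cortex fewer cells of a type and less RNA per cell cannot be told apart.

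Pcdha9 had 207, 223 and 201 normalised counts in miR29Nestin cortices, against 168, 157 and 163 in miR29WT cortices. All 3 miR29Nestin values lay above the highest miR29WT value. The means were 210 ± 11.1 and 162 ± 5.6 (SD, n = 3 each), and the difference was 0.21 (SE 0.06, limma adjusted p = 0.0325). The call was lost without any 1 of 5 libraries: adjusted p was 0.0546 without miR29Nestin replicate 1, 0.114 without replicate 2, 0.0545 without miR29WT replicate 1, 0.104 without replicate 2 and 0.0916 without replicate 3. It was 0.0434 without miR29Nestin replicate 3.

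The other alternate alpha genes followed at smaller sizes and none of them passed the test. Pcdha2 had 178, 180 and 192 normalised counts in miR29Nestin cortices, against 136, 149 and 156 in miR29WT cortices (difference 0.17, SE 0.06, limma adjusted p = 0.0739). Pcdha4 had 184, 185 and 199 in miR29Nestin cortices, against 160, 158 and 153 in miR29WT cortices (difference 0.15, SE 0.06, limma adjusted p = 0.108). Groups did not overlap for either gene. Pcdha3 differed by 0.16 (SE 0.07, limma adjusted p = 0.128) and Pcdha8 by 0.18 (SE 0.08, limma adjusted p = 0.129), both without overlap. Pcdha11 differed by 0.17 (SE 0.07, limma adjusted p = 0.132) with overlap, since miR29Nestin replicate 1, at 164, lay under miR29WT replicate 1, at 172. Pcdha7 and Pcdha5 had differences of 0.14 each (limma adjusted p = 0.152 and 0.175), and their groups also stood apart. Pcdha1 had the smallest difference of the 12, at 0.09, and its groups overlapped.

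Counted over the 14 alpha genes, 13 had a positive difference, where 48.5% of all tested genes did, and their median was 0.14, where the median of all tested genes was -0.01. Without overlap between the groups stood 9 of the 14, all higher, against 18.6% of all tested genes. At an unadjusted p under 0.05 there were 6 members higher, all of them alpha genes, and 1 lower, Pcdhgc5, against 33.0% of all tested genes (16.2% higher and 16.8% lower). On the scale of log2 of the normalised count plus 1, which does not flatten low genes, the median over the 12 alternate genes was 0.26.

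**Figure D2:**
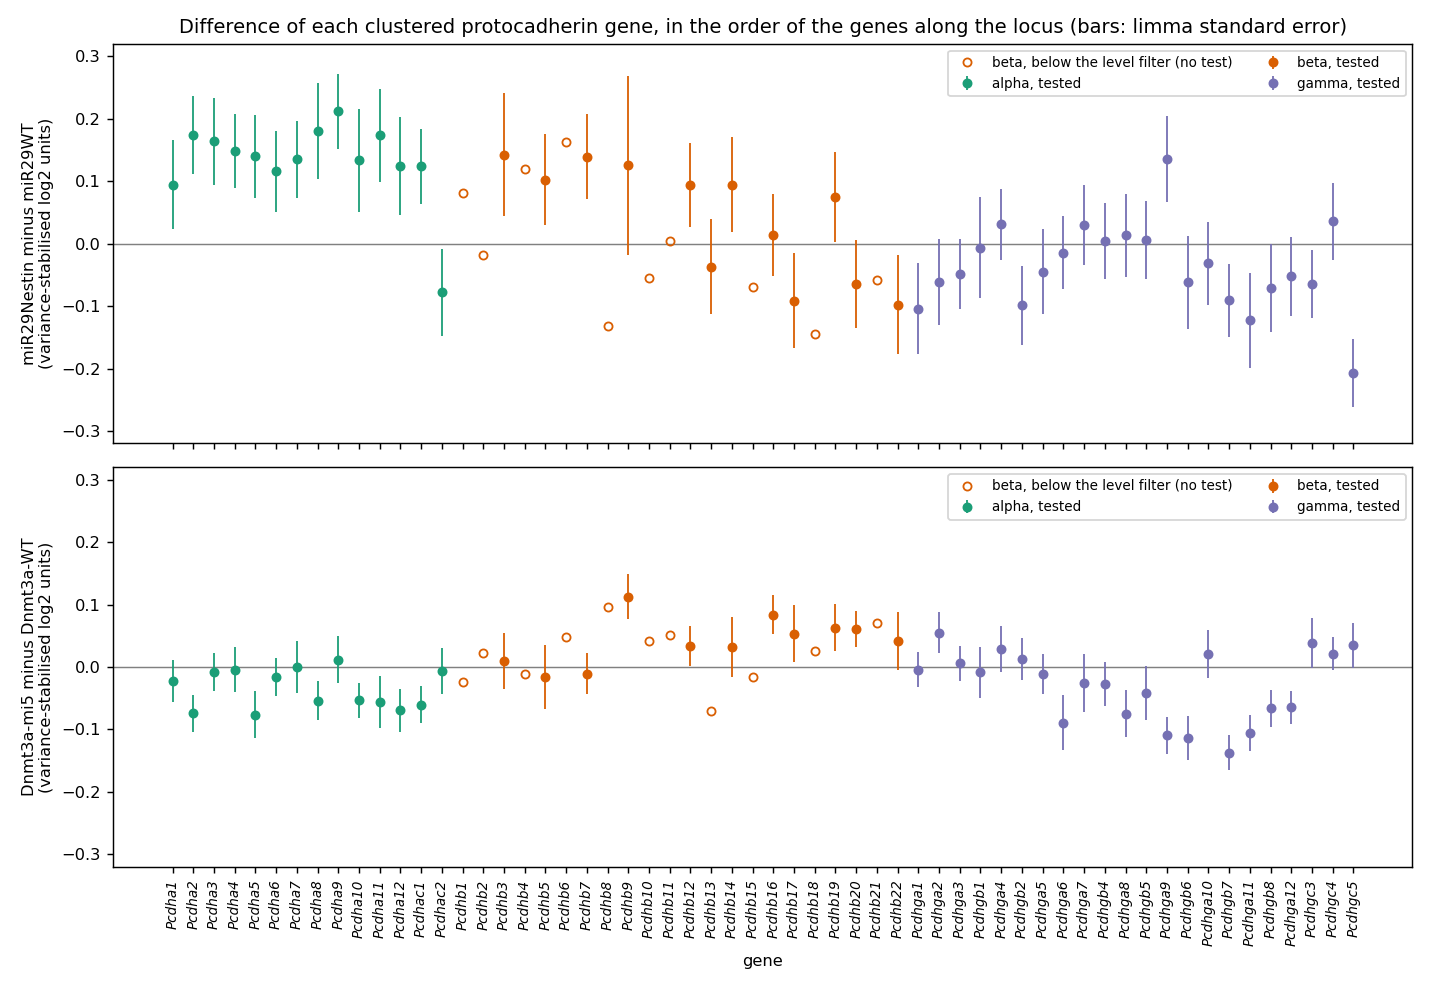
Difference on the deposited variance-stabilised scale (vertical) for each of the 58 genes in their order along the locus (horizontal), miR29Nestin minus miR29WT above and Dnmt3a-mi5 minus Dnmt3a-WT below. Filled points with bars show tested genes and their limma standard error, open points the beta genes below the level filter. In the upper panel the alpha genes from Pcdha1 to Pcdhac1 lie above 0 and Pcdhac2 and Pcdhgc5 below it, and in the lower panel most points lie within 0.1 of 0, with the lowest at Pcdhgb7.

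Summed over the 12 alternate alpha genes, the level was 2139, 2355 and 2163 normalised counts in miR29Nestin cortices, against 1929, 1782 and 1804 in miR29WT cortices. The lowest miR29Nestin sum lay above the highest miR29WT sum, and the mean was 20.7% higher. With the 2 C-type genes included the alpha cluster summed to 2753, 3014 and 2863 in miR29Nestin cortices, against 2561, 2434 and 2514 in miR29WT cortices, 14.9% higher. These sums were not tested.

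As a sum, the gamma cluster lay the other way. Its 22 genes summed to 9599, 9641 and 8974 normalised counts in miR29Nestin cortices, against 9950, 9917 and 9711 in miR29WT cortices. The groups did not overlap, and the change of the mean was -4.61%. The ratio of the alternate alpha sum to the gamma sum was 0.223, 0.244 and 0.241 in miR29Nestin cortices, against 0.194, 0.180 and 0.186 in miR29WT cortices. This ratio compares genes within a library and so does not depend on the scaling between libraries. The sum of all 58 genes changed by -0.288%, less than the spread between libraries.

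Pcdhgc5 had the most negative difference of the family. It had 1248, 1135 and 1127 normalised counts in miR29Nestin cortices, against 1400, 1353 and 1381 in miR29WT cortices, and the groups stood clearly apart. The means were 1170 ± 67.9 and 1378 ± 23.4 (SD, n = 3 each), and the difference was -0.21 (SE 0.05, limma adjusted p = 0.0225). Its call too was lost without any 1 of 5 libraries, with adjusted p at 0.0876 without miR29Nestin replicate 2, 0.0546 without replicate 3, 0.0646 without miR29WT replicate 1, 0.0598 without replicate 2 and 0.0726 without replicate 3. Without miR29Nestin replicate 1 adjusted p was 0.00893.

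The other C-type genes did not pass the test. Pcdhgc3 had 936, 860 and 869 normalised counts in miR29Nestin cortices, against 963, 938 and 911 in miR29WT cortices, which overlap (difference -0.06, SE 0.05, limma adjusted p = 0.445). Pcdhgc4, which neurons including cortical interneurons need for survival in mice, had 458, 416 and 390 in miR29Nestin cortices, against 407, 405 and 406 in miR29WT cortices (difference 0.04, SE 0.06, limma adjusted p = 0.733). Pcdhac1 had 189, 210 and 195 in miR29Nestin cortices, against 172, 168 and 170 in miR29WT cortices. It behaved in sign and size like the alternate alpha genes before it (difference 0.12, SE 0.06, limma adjusted p = 0.177), with no overlap. Pcdhac2 had 425, 450 and 505 in miR29Nestin cortices, against 460, 484 and 540 in miR29WT cortices (difference -0.08, SE 0.07, limma adjusted p = 0.478). It is the only alpha gene with a negative difference, and its groups overlapped. It ends in the same 3′ UTR as the other 13, and any part of the match in these values was not tested.

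Of the alternate gamma genes none passed the test. All 12 gamma A genes overlapped between the groups, with ratios of mutant to wild-type means from 0.893 to 1.14. Of the 7 gamma B genes, Pcdhgb7 alone stood apart, with 302, 336 and 327 normalised counts in miR29Nestin cortices, against 349, 356 and 352 in miR29WT cortices (difference -0.09, SE 0.06, limma adjusted p = 0.312). With Pcdhgc5 this makes 2 of 22 gamma genes lower without overlap, against 18.7% of all tested genes.

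Among the beta genes 12 of 22 were tested and none passed. Pcdhb7 was the only one without overlap, where 18.6% of all tested genes stood apart and higher, with 111, 122 and 133 normalised counts in miR29Nestin cortices, against 101, 88.1 and 110 in miR29WT cortices (difference 0.14, SE 0.07, limma adjusted p = 0.185). Pcdhb20, the highest beta gene by normalised counts averaged over all 6 libraries, had 162, 130 and 165 in miR29Nestin cortices, against 173, 150 and 172 in miR29WT cortices (difference -0.06, SE 0.07, limma adjusted p = 0.571). The beta sum differed by 3.02%, with overlap. Of the 2 beta genes with a TGGTGCT, Pcdhb22 differed by -0.10 (SE 0.08, limma adjusted p = 0.426), and Pcdhb4, below the filter, had 20.5, 39.1 and 26.3 in miR29Nestin cortices, against 13.2, 27.2 and 20.8 in miR29WT cortices.

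Across the table, the 2073 tested genes with a TGGTGCT in the 3′ UTR had a median difference of 0.03, and 56.1% of them were positive, with 336 called higher and 173 called lower. The 9511 tested genes with a 3′ UTR and no match had a median of -0.01, 46.8% positive, with 710 called higher and 1000 called lower. The median of the 14 alpha genes was 0.14. As the 14 alpha genes share 1 UTR, they are 1 instance of a match and not 14.

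**Figure D3:**
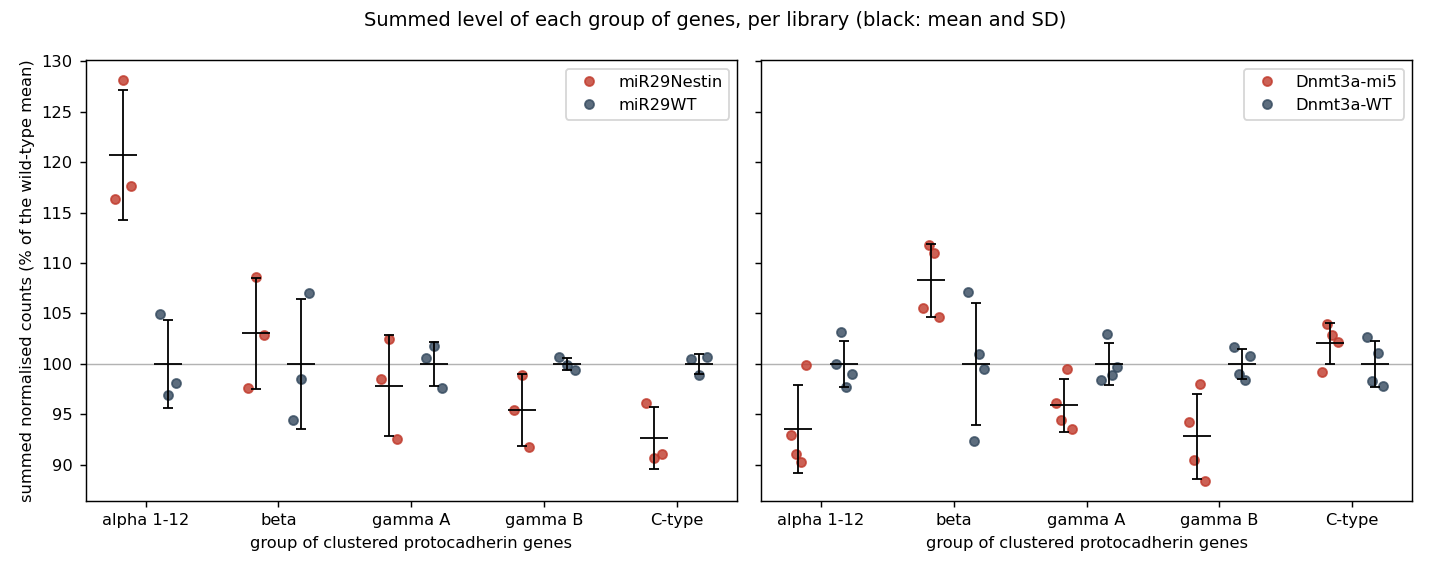
Summed normalised counts per library as a percentage of the wild-type mean (vertical) for 5 groups of genes (horizontal), with miR29Nestin and miR29WT on the left panel and Dnmt3a-mi5 and Dnmt3a-WT on the right. Points are libraries and black marks the mean and SD (n = 3 or 4 per group), and the vertical axis does not start at 0. The alternate alpha genes stand above all wild-type libraries in miR29Nestin, and the gamma B genes lie below them in both mutants.

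Markers of several cell types differed at P40, where 9.02% of all tested genes were called higher and 10% lower. Of 7 excitatory neuron markers 4 were called lower, and their sum ran from 79634 to 86182 normalised counts in miR29Nestin cortices, against 92670 to 105471 in miR29WT cortices. Of 7 astrocyte markers 4 were called higher and 1 lower, with sums of 55259 to 59679 in miR29Nestin cortices, against 50234 to 52305 in miR29WT cortices. Of 6 leptomeningeal fibroblast markers 3 were called higher, with sums of 1370 to 1770 in miR29Nestin cortices, against 639 to 1084 in miR29WT cortices, and Lum was below the filter. The called genes were Igf2 (0.84), Col1a1 (0.33) and Col1a2 (0.32), while Slc6a13 (0.15) and Dcn (-0.07) were not called. Igf2 made up most of the sum, with means of 1162 in miR29Nestin and 585 in miR29WT cortices. Sums of the 3 oligodendrocyte precursor markers were also higher without overlap, with 1 called, and those of the 6 immature neuron and 3 cortex identity markers lower, with 4 and 3 called. The 6 interneuron markers went both ways, with Pvalb (0.78) and Gad1 (0.23) called higher, Gad2 (-0.52) and Sst (-0.48) called lower, and sums that overlapped. Of 5 oligodendrocyte markers Mbp (0.21) and Mobp (0.33) were called higher, and the sums overlapped. No serotonergic marker (Tph2, Slc6a4, Fev) passed the filter. Of the 3 hindbrain and cerebellum markers Hoxb3 was at 0 in every library and Gabra6 below the filter. Cbln1 was called lower (-0.31, limma adjusted p = 0.00879), and the list's sum ran from 98.7 to 119 in miR29Nestin cortices, against 152 to 176 in miR29WT cortices. The part of these shifts in the values of Pcdhgc5 and the alpha genes was not tested.

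When only the miR-29 sites of Dnmt3a were mutated, none of the 47 tested members passed the test, in a table where 0.797% of all genes passed (0.225% higher and 0.572% lower, limma). Those shares are 24 genes higher and 61 lower, and they rest on the settings: 3 and 10 were called with a term for the removed difference between library sets. Leaving out 1 library gave 3 or 4 higher and 5 to 17 lower, except without Dnmt3a-WT library 2, which gave 49 and 126. At an unadjusted p under 0.05 there were 2 members higher and 7 lower, against 19.0% of all tested genes (8.42% higher and 10.6% lower). The robust form of limma's variance prior called 1 member, Pcdhgb7. The differences ran from -0.14 to 0.11, and the ends of that range lay in the later alternate gamma genes and in single beta genes. The alternate alpha genes, which lay higher in miR29Nestin cortices, lay slightly lower or level here.

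Pcdhgb7 had the smallest p. It had 279, 279, 262 and 272 normalised counts in Dnmt3a-mi5 cortices, against 316, 325, 349 and 320 in Dnmt3a-WT cortices, so the highest Dnmt3a-mi5 value lay below the lowest Dnmt3a-WT value. The means were 273 ± 8.2 and 327 ± 14.8 (SD, n = 4 each), and the difference was -0.14 (SE 0.03, limma adjusted p = 0.0524, and 0.0498 with the robust prior). With a model term for the removed difference between library sets its adjusted p was 0.142.

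Its neighbours in the later stretch of the gamma cluster lay the same way. Pcdhga9 had 291, 282, 308 and 289 normalised counts in Dnmt3a-mi5 cortices, against 330, 358, 319 and 343 in Dnmt3a-WT cortices (difference -0.11, SE 0.03, limma adjusted p = 0.0927). Pcdhga11 had 495, 447, 480 and 457 in Dnmt3a-mi5 cortices, against 543, 512, 524 and 535 in Dnmt3a-WT cortices (difference -0.11, SE 0.03, limma adjusted p = 0.0962). Pcdhgb6 had 358, 352, 389 and 315 in Dnmt3a-mi5 cortices, against 406, 401, 395 and 421 in Dnmt3a-WT cortices (difference -0.11, SE 0.04, limma adjusted p = 0.131). None of these groups overlapped. Pcdhga12 also stood apart by -0.06 (SE 0.03, limma adjusted p = 0.222), and Pcdhgb8 overlapped at -0.07 (SE 0.03, limma adjusted p = 0.261). Pcdhga10, which lies among them, differed by 0.02 (SE 0.04, limma adjusted p = 0.818). In all, 5 gamma genes stood apart and lower, against 6.67% of all tested genes. The stretch was noticed after its values were seen, and its genes share their constant exons.

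Taken as sums, the 7 gamma B genes had 2000, 1920, 2080 and 1876 normalised counts in Dnmt3a-mi5 cortices, against 2157, 2101, 2088 and 2138 in Dnmt3a-WT cortices. The groups did not overlap, by a narrow margin, and the change of the mean was -7.18%. For the whole gamma cluster it was -2.49%, with overlap. The gamma C-type genes were level: Pcdhgc5 had between 1476 and 1655 in Dnmt3a-mi5 cortices, against between 1500 and 1591 in Dnmt3a-WT cortices (difference 0.03, SE 0.04, limma adjusted p = 0.657). Pcdhgc3 differed by 0.04 (SE 0.04, limma adjusted p = 0.655) and Pcdhgc4 by 0.02 (SE 0.03, limma adjusted p = 0.709).

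Among the beta genes 11 of 22 were tested, and 9 of the 11 had a positive difference, where 51.3% of all tested genes did. On leaving out 1 library that count ran from 7, without Dnmt3a-WT library 4, to 11, without Dnmt3a-WT library 1. Pcdhb9, the highest beta gene of this table by normalised counts averaged over all 8 libraries, had 170, 215, 199 and 203 normalised counts in Dnmt3a-mi5 cortices, against 168, 168, 150 and 169 in Dnmt3a-WT cortices. The groups stood apart, though the lowest mutant library lay close to the highest wild-type library (difference 0.11, SE 0.04, limma adjusted p = 0.132). Pcdhb16 had 116, 123, 120 and 132 in Dnmt3a-mi5 cortices, against 115, 99.2, 93.8 and 109 in Dnmt3a-WT cortices (difference 0.08, SE 0.03, limma adjusted p = 0.180). These are the 2 tested beta genes that stood apart and higher, against 5.33% of all tested genes. Pcdhb20 differed by 0.06 (SE 0.03, limma adjusted p = 0.296). The beta sum was 1767, 1872, 1857 and 1752 in Dnmt3a-mi5 cortices, against 1793, 1546, 1691 and 1666 in Dnmt3a-WT cortices, 8.27% higher with overlap.

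**Figure D4:**
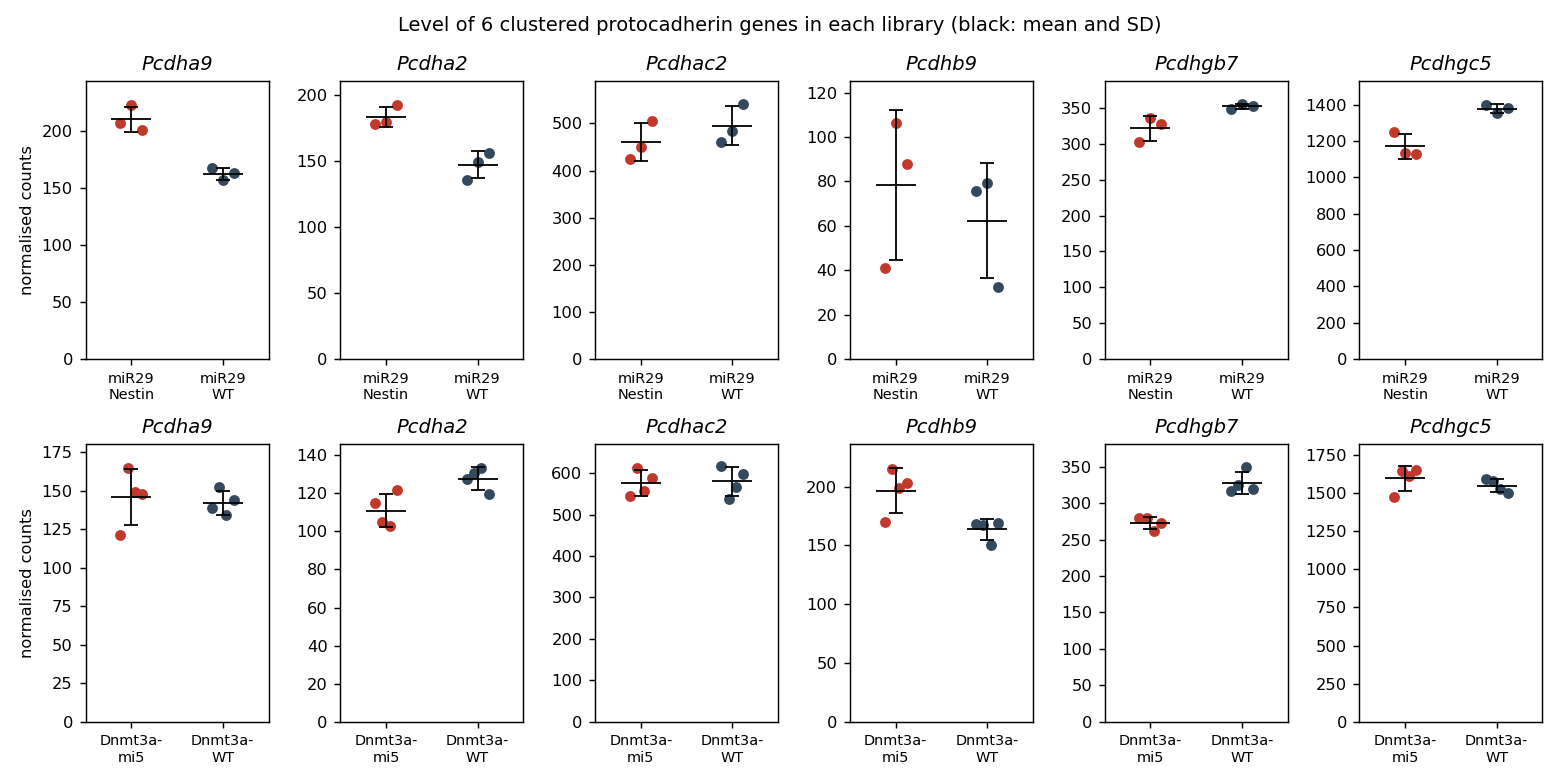
Normalised counts (vertical, from 0) of 6 clustered protocadherin genes in each library, with miR29Nestin and miR29WT in the upper row and Dnmt3a-mi5 and Dnmt3a-WT in the lower row. Black marks the mean and SD (n = 3 or 4 per group). In the upper row Pcdha9 and Pcdha2 lie above miR29WT and Pcdhgc5 and Pcdhgb7 below it, and in the lower row Pcdhgb7 lies below Dnmt3a-WT and Pcdhb9 above it.

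The alpha genes at 4.5 months all overlapped between the groups. Of the 14, 13 had a negative difference, with a median of -0.04, where the median of all tested genes was 0.00. Pcdha2 had 115, 105, 103 and 122 normalised counts in Dnmt3a-mi5 cortices, against 127, 131, 133 and 120 in Dnmt3a-WT cortices (difference -0.07, SE 0.03, limma adjusted p = 0.210), the smallest p among them. Pcdha9, called at P40, had 121, 165, 149 and 148 in Dnmt3a-mi5 cortices, against 139, 152, 134 and 144 in Dnmt3a-WT cortices (difference 0.01, SE 0.04, limma adjusted p = 0.902). The C-type gene Pcdhac1 differed by -0.06 (SE 0.03, limma adjusted p = 0.307), and Pcdhac2 by -0.01 (SE 0.04, limma adjusted p = 0.953). The sum over the 12 alternate genes was 1462, 1433, 1421 and 1572 in Dnmt3a-mi5 cortices, against 1574, 1624, 1538 and 1559 in Dnmt3a-WT cortices. The change of the mean was -6.44%, and the groups overlapped because Dnmt3a-mi5 library 4 lay among the wild-type libraries. Which alpha genes were negative depended on single libraries, as 5 of the 12 alternate genes were positive without Dnmt3a-WT library 2.

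Set side by side, the models did not share a direction for the alpha cluster. Of the 47 genes tested in both tables, 40.4% had the same sign, where 58.8% of 10610 genes tested in both did. For the alpha cluster it was 14.3%, as 12 of its 14 genes were positive in miR29Nestin and negative in Dnmt3a-mi5 cortices. Pcdhgb7 stood apart and lower in both, with differences of -0.09 in miR29Nestin and -0.14 in Dnmt3a-mi5 cortices, neither called. For Pcdhgc5 the differences were -0.21 and 0.03. The tables share no samples and differ in age, kit and normalisation. No test of the difference between models was made, so these are each model's own values and not a shown difference.

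Markers also differed at 4.5 months, where 0.225% of all tested genes were called higher and 0.572% lower. The 7 astrocyte markers summed to between 52977 and 54984 normalised counts in Dnmt3a-mi5 cortices, against between 60424 and 64606 in Dnmt3a-WT cortices, with 1 called lower. That gene, Slc1a2, made up most of the sum, with means of 41632 in Dnmt3a-mi5 and 49580 in Dnmt3a-WT cortices. The rest went both ways: Aqp4 (-0.22), Gja1 (-0.09) and Slc1a3 (-0.08) were lower, and Gfap (0.06), Gjb6 (0.06) and Aldh1l1 (0.02) higher, none called. The 5 microglia markers summed to 2345 to 2678 in Dnmt3a-mi5 cortices, against 2717 to 2860 in Dnmt3a-WT cortices, with 2 called lower. These were Cx3cr1 (-0.24) and P2ry12 (-0.30), while Csf1r (-0.06), Tmem119 (-0.001) and C1qa (0.01) were not called. Of 4 endothelial markers Flt1 was called higher (0.25, limma adjusted p = 0.0473), and the sums overlapped. Slc1a2 and P2ry12 also lay just under the threshold, with limma adjusted p of 0.0478 and 0.0495. These marker calls come from the fit without a term for the removed difference between library sets, and fewer genes in all were called with that term. The sum of the 3 choroid plexus markers ranged from 173 to 12737 in Dnmt3a-mi5 cortices and from 71.8 to 10939 in Dnmt3a-WT cortices, although Folr1 and Kcne2 were below the filter. The part of these markers in the beta and gamma values was not tested.

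Genes known to act on the clusters were described from lists drawn up with earlier results of these data known. Of 11 genes of CTCF and cohesin, which bring protocadherin promoters to their enhancers, 1 was called at P40. It was called higher, beside 9.02% of all tested genes, so the count lies near the share of all genes. None was called at 4.5 months, where limma's unadjusted p was under 0.05 for 2, both lower, beside 10.6% of all tested genes. Mau2, part of the cohesin loader, averaged 1593 ± 38.7 normalised counts in miR29Nestin cortices and 1382 ± 27.3 in miR29WT cortices (difference 0.18, SE 0.05, limma adjusted p = 0.0253, n = 3 each). Ctcf itself averaged 703 ± 68.0 in miR29Nestin cortices and 771 ± 17.8 in miR29WT cortices (difference -0.11, SE 0.07, limma adjusted p = 0.268, n = 3 each).

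Of 12 genes listed for the silencing of promoters through DNA or histone methylation, 10 were tested and 2 were called higher at P40. Of all tested genes 9.02% were called higher, and 1 of the 2 was Dnmt3a, picked in advance for its miR-29 sites. Beside Dnmt3a, Setdb1, a histone H3 lysine 9 methyltransferase that represses the clusters in mouse neurons, averaged 772 ± 24.6 normalised counts in miR29Nestin cortices and 650 ± 21.1 in miR29WT cortices (difference 0.20, SE 0.05, limma adjusted p = 0.0265, n = 3 each). Smchd1, which silences the clusters in mice, differed by -0.03 (SE 0.09, limma adjusted p = 0.864). At 4.5 months Dnmt3a was the 1 gene of this list that passed. Dnmt3b, which methylates the alternate promoters in the early mouse embryo, and Uhrf1 were below the filter in both tables.

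Of 19 genes for signalling, cleavage and binding partners of the proteins, 2 were called higher and 4 lower at P40, beside 9.02% and 10% of all tested genes. None was called at 4.5 months, where limma's unadjusted p was under 0.05 for 2 in the higher and 7 in the lower direction, beside 8.42% and 10.6% of all tested genes. Ptk2b, a focal adhesion kinase family member that the cytoplasmic domains inhibit, averaged 7201 ± 329 normalised counts in miR29Nestin cortices and 6022 ± 164 in miR29WT cortices (difference 0.25, SE 0.05, limma adjusted p = 0.00459, n = 3 each). Abi2, of the WAVE actin complex that the alpha tail recruits, averaged 1690 ± 179 in miR29Nestin cortices and 2270 ± 114 in miR29WT cortices (difference -0.39, SE 0.07, limma adjusted p = 0.00339, n = 3 each). Psen2, a presenilin of the gamma-secretase that cuts the proteins, was higher by 0.24 (SE 0.06, limma adjusted p = 0.0161). Nckap1 of the WAVE complex, Adam10, the protease that sheds the extracellular part, and Nlgn1, a neuroligin bound by gamma protocadherins, were the other 3 called lower. At 4.5 months Abi2 differed by -0.13 (SE 0.03, limma adjusted p = 0.066), which did not pass.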

How the data were processed

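Polyadenylated RNA of mouse cortex was sequenced as stranded paired-end libraries, prepared per the labels' protocols with TruSeq at P40 and KAPA kits at 4.5 months. The authors deposited 1 table per comparison of variance-stabilised values (a log2-like scale); DESeq2, Salmon, STAR, cutadapt and the builds mm9 and hg19 stand, without a role, in the submitters' processing notes. Coordinates and UTRs here come from RefSeq and GENCODE annotation of GRCm38.p6, and none was taken from the files.

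Normalised counts were recovered by inverting the deposited log2 values, since differences of stabilised values at low counts are compressed. At P40 the size factor kept for each library was the one that put most low values within 0.05 of a whole read, which gave the depths. That share was between 87.2% and 89.9% of the low values per library. As the quantity made largest, it is not an independent check of the depths. At 4.5 months the means of 2 sets of 4 libraries agreed within 5.5e-09, where other splits differed by 0.538 or more, so an additive effect was removed before deposit. 2546 genes there lie below the level of 0 reads in some library. Normalised counts of that table are therefore adjusted values and not reads over a size factor.

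Each table was fitted apart with limma 3.58.1 (R 4.3.3) on the deposited values with a mean-variance trend, over 12014 genes at P40 and 10670 at 4.5 months with a mean 1 or more units over the table's minimum, with Benjamini-Hochberg adjustment. The fit was tested on simulated data. Replicate numbers at P40 appear in the labels, and deviations of same-numbered libraries correlated at 0.335, 0.204 and 0.186. Each exceeded 0.1, the rule for a pairing, but miR29Nestin replicate 3 and miR29WT replicate 2 also reached 0.178. The pairing is thus uncertain. P40 tests in the Results come from the fit without pairs. A fit with the replicate number as a block was run beside it. The block changed no call among the 58 genes. Columns of the 4.5-month table name the group only, and libraries are numbered in column order. Y-linked reads were found in 1 of 3 miR29Nestin and 2 of 3 miR29WT libraries. Named genes were the 5 C-type genes, up to 10 tested members per table with the smallest p, the highest member of each cluster, Dnmt3a and up to 3 genes per list. Others named (the remaining alpha, beta and gamma genes, and Ctcf, Smchd1, Nckap1, Adam10 and Nlgn1) were chosen after their values were seen. The members and lists were chosen with earlier results of these data known. Levels per kb use the longest coding transcript. 1 result for a gene of the promoter silencing list is not reported here.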

Additional observations from a re-analysis of the deposited data

Results flagged for a closer look

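In the 4.5-month table, 46 groups of 4 libraries were looked at for a library far from the other 3, and 2 groups held one, where chance gives about 1 in 20. Both are Dnmt3a-WT library 3. It had 150.2 normalised counts of Pcdhb9, with the other 3 Dnmt3a-WT libraries at 167.8 to 168.9, and without it the difference of Pcdhb9 was 0.10 (limma adjusted p = 0.258). It had 239.8 normalised counts of Pcdhgb8, with the other 3 at 252.6 to 254.0, and without it the difference was -0.08 (limma adjusted p = 0.293). Neither gene passed the test with or without that library.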

How the results depend on the processing

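At P40 the count of members called was 1 higher and 1 lower with other scalings, variance priors or the replicate block, under which the 2 members had adjusted p of 0.0338 (Pcdha9) and 0.0114 (Pcdhgc5), and 1409 genes in all were called higher and 1628 lower. Members called higher fell to 0 with the stricter filter, which leaves Pcdha9 untested. Leaving out 1 library gave 0 to 1 members higher, 0 to 1 lower, 677 to 1015 genes higher and 722 to 1299 lower. It moved the median of all members between -0.0063 and 0.0556, which turns sign without miR29Nestin replicate 2, and that of beta genes between 0.0317 and 0.0792. The median was 0.2561 for alpha, 0.2609 for alternate alpha and 0.217 for beta genes with log2(normalised count + 1), and 0.2334, 0.2387 and 0.177 with a pseudocount of 16, since these scales flatten low genes less. For beta genes it was 0.0094 with no filter and 0.0192 with Y-linked genes as a covariate, and for all members -0.0469 under the stricter filter, which leaves the alpha and beta genes mostly out. The cause was not tested for the rest. All 12 alternate alpha genes were positive in each fit that tested all of them. Pcdhgc4 ranged from -0.0087 without miR29Nestin replicate 1 to 0.0753 without replicate 3.

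At 4.5 months the robust prior called 1 member lower. Genes called higher and lower were 4 and 21 with no filter, 3 and 10 with a term for the removed effect, 38 higher under the stricter filter, and 3 to 49 higher and 5 to 126 lower on leaving out 1 library, with both highest counts without Dnmt3a-WT library 2. With pseudocounts of 1 and 16 the medians were -0.0203 and -0.0183 for all members, -0.1037 and -0.0922 for alpha and also for alternate alpha genes, and 0.1211 and 0.1096 for beta genes. Leaving out 1 library took the beta median between 0.0373 and 0.0669, and Pcdhac2 between -0.029 and 0.0141. Pcdhac2 was 0.0141 and 0.0044 without Dnmt3a-WT libraries 1 and 4, and 0.0108 and 0.0045 without Dnmt3a-mi5 libraries 1 and 3. No paired analysis was possible because the columns of this table carry no replicate numbers of their own. Genes of low level, mostly beta genes, are limited by depth at P40.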
